A study of Mus musculus with 10 samples.

Results

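The insulin-like growth factor (IGF) axis is described here by 10 genes chosen by name: the ligands Igf1 and Igf2, the receptors Igf1r and Igf2r, and the binding proteins Igfbp2, Igfbp3, Igfbp4, Igfbp5, Igfbp6 and Igfbp7. The choice was made with earlier results of these data known. All 10 were present among the 41743 gene names of the count tables, and 6 of them (Igf1, Igf1r, Igf2r, Igfbp4, Igfbp6 and Igfbp7) passed the filter on low counts, which left 12595 genes for testing. The libraries came from K7M2, a mouse osteosarcoma cell line used as a model of metastasis, in which the gene of ezrin, a linker between the plasma membrane and the actin cytoskeleton, was disrupted with CRISPR/Cas9. Disrupted cells stably received ezrin T567A, which cannot be phosphorylated at the regulatory threonine, ezrin T567D, which mimics that phosphorylation, wild-type ezrin, or an empty vector. Together with unedited parental K7M2 this gave 5 lines with 2 libraries each. All 4 derived lines, the empty-vector line included, carry the ezrin disruption and a vector, and the parental line carries neither. Each construct is represented by 1 line whose titles share the tag col3, so a construct and the line that carries it cannot be told apart. The parental titles lack this tag, so whatever it marks also separates the derived lines from the parental line. A difference shared by all 4 derived lines may therefore be a single difference seen 4 times. Nothing in the labels tells whether both libraries of a line had a culture of their own, so each p-value is set against library-to-library spread that may be technical.

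IGF1 and IGF2 are secreted growth factors that signal for growth and survival through IGF1R, a receptor tyrosine kinase, whereas IGF2R, the cation-independent mannose 6-phosphate receptor, sorts lysosomal enzymes and carries IGF2 to lysosomes for degradation. The IGF-binding proteins hold the ligands outside the cell and limit or prolong their access to IGF1R, and proteases that cut the binding proteins release the ligands again. Bone matrix is a store of IGFs, and osteoblasts both make and answer to them. The cells were grown in foetal bovine serum, and growth factors of the serum leave no mouse mRNA to count.

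Library totals ran from 14679424 counts for T567A replicate 2 to 18230763 counts for T567A replicate 3. The floor of 3 counts in a library equalled 0.167 to 0.207 CPM (counts scaled to library depth), and the mitochondrial share of counts was 1.90% and 1.44% for T567A, against 0.844% to 1.33% for the other 8 libraries. Ezr, the targeted gene, averaged 250.1 CPM in T567A, 193 CPM in T567D, 232 CPM in wild-type, 72.6 CPM in empty-vector and 165 CPM in parental libraries, so Ezr RNA was lowest in the empty-vector line but present. Of 10 osteoblast markers 7 were tested, with Runx2 at 32.3 to 42.6 CPM and Col1a2 at 2892 to 3529 CPM, while Sp7, an early commitment factor, and the later markers Ibsp and Bglap had at most 5 counts in a library. The summed level of the osteoblast list was 5184 to 5208 CPM in T567A, 5110.0 to 5515 CPM in T567D, 4524 to 4632 CPM in wild-type, 4456 to 4520.4 CPM in empty-vector and 7165 to 7314 CPM in parental libraries, and its part in the results below was not tested. The members did not move together: Col1a1 averaged 603 CPM in T567A, 734 in T567D, 259 in wild-type, 323 in empty-vector and 1815 CPM in parental libraries, whereas Spp1 averaged 302, 253, 254, 293 and 168 CPM in the same lines, and Alpl (2.80 to 12.9 CPM in the derived lines, 1.98 CPM in parental) and Postn (0.486 to 1.74 CPM in the derived lines, 0 in parental) were also lowest in the parental line. Among macrophage markers Csf1r reached 1176 to 1680.3 CPM, but Adgre1 had 0 counts everywhere and Tyrobp and Fcer1g at most 1 count. Cd68 was also tested, at 1.79 to 2.63 CPM, and Ptprc had at most 6 counts in a library. Epithelial markers were near 0 in all libraries, with Epcam, Krt19 and Cldn4 at 0 counts, and of 5 endothelial markers only Cdh5 was tested, at 0.621 to 1.97 CPM.

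Per kilobase of gene length, the axis in these cells was made up of 3 binding proteins and the 2 receptors, with very little ligand. Igfbp7, a secreted matrix protein that binds IGFs weakly, was the most abundant member, at 165 to 228 RPKM (reads scaled to gene length and library depth) over the 10 libraries. Igfbp6, which prefers IGF2, lay at 20.3 to 32.4 RPKM, and Igfbp4, an inhibitor of IGF action that the protease PAPP-A cleaves, at 2.47 to 32.6 RPKM. Igf2r lay at 7.08 to 20.7 RPKM and Igf1r at 3.02 to 4.69 RPKM. Igf1 never exceeded 0.161 RPKM and Igf2 never exceeded 0.0384 RPKM. All 6 tested members differed somewhere among the 5 lines in edgeR's quasi-likelihood F test, with the largest Benjamini-Hochberg adjusted p at 7.4e-05 (Igfbp7), where 78.0% of all tested genes were also called. Igf1 is counted among the 6 although it entered the test only through the line where it was highest, as described below. Since the lines are compared in bulk RNA, fewer cells that express a gene and less of its RNA per cell cannot be told apart.

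**Figure D1:**
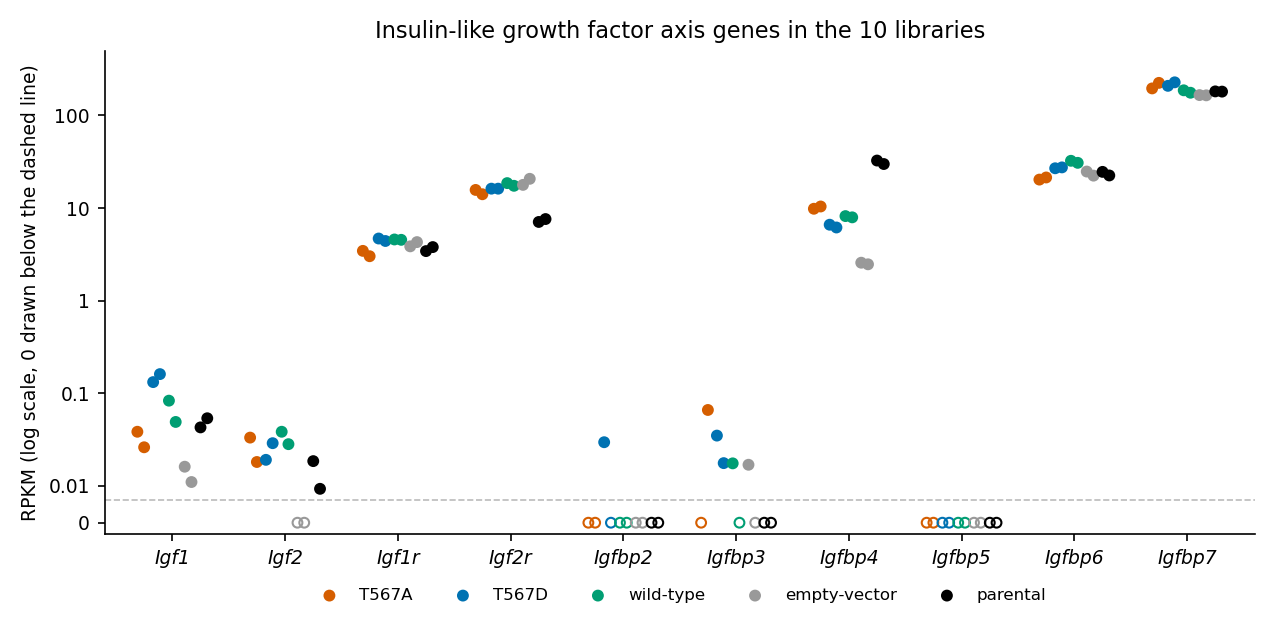
RPKM of the 10 members in each of the 10 libraries (1 point per library, coloured by line, log axis, open points below the dashed line for 0). Igfbp7 stands highest at 165 to 228 RPKM, the ligands stay at or under 0.161 RPKM, and Igfbp4 spans the widest range of the detected binding proteins, from 2.47 RPKM in an empty-vector library to 32.6 RPKM in a parental one.

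Igfbp4 and Igf2r were the members called against the parental line in all 4 derived lines, in opposite directions, and their promoters are shown here to place those results. Igfbp4 lies on chromosome 11 on the + strand (chr11:99041244-99054392, GRCm38) and Igf2r on chromosome 17 on the - strand (chr17:12682406-12769664), both protein-coding. The 250 bases before the RefSeq start (GRCm38.p6) are given 5′ to 3′ on the gene's own strand, chr11:99040994-99041243 for Igfbp4 and chr17:12769707-12769956 for Igf2r, with the motif matches in capitals: TATAAA in Igfbp4 and CACGTG in Igf2r.
Igfbp4: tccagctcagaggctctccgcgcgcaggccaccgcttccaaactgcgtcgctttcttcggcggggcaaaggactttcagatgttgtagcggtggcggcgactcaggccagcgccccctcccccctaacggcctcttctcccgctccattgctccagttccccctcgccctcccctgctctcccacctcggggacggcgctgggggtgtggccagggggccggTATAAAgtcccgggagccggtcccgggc
Igf2r: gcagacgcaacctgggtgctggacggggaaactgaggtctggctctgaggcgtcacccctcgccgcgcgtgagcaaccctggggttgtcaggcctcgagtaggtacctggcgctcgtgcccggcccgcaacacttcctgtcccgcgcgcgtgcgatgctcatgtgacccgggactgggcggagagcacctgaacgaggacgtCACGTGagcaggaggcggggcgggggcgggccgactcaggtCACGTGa
Each window was 69.2% G or C. The TATA box letters TATAAA, searched on both strands, stood once before Igfbp4, 28 to 23 bases ahead of the start, and occur in 12.4% of 32851 RefSeq promoter windows of the same length. The E-box letters CACGTG, which read the same on both strands, stood at 48 to 43 and at 7 to 2 bases before the Igf2r start. They occur in 6.02% of the windows, and 0.429% hold them 2 or more times. Among the 14 promoters of the 10 members, all matched by symbol, TATAAA was also found before Igfbp6 and CACGTG before Igfbp2. These matches describe letters, and no binding of a factor was measured.

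Of the ligands, Igf1, the main circulating and locally made IGF after birth, was detected at a few counts per library. Igf1 had 6 and 5 counts in T567A, 24 and 29 in T567D, 15 and 9 in wild-type, 3 and 2 in empty-vector, and 8 and 10 in parental libraries. On the CPM scale this was 0.414 and 0.278 in T567A, 1.39 and 1.69 in T567D, 0.872 and 0.514 in wild-type, 0.169 and 0.116 in empty-vector, and 0.465 and 0.583 in parental libraries. Both T567D libraries were above all others and both empty-vector libraries below all others. Igf1 passed the filter on low counts through the T567D libraries alone, so that line had to stand high for a test to be made, and the differences between T567D and the other lines are given as a description, without p-values.

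In edgeR's fit, Igf1 had a log2 fold change of 3.36 (SE 0.50) for T567D minus empty-vector. The ratio of CPM from 53 against 5 counts was 10.8, with an exact 95% interval from counting error of 4.34 to 34.5. This interval and the one below allow neither for spread between libraries nor for the selection through T567D, and they are no test. The log2 fold change was -2.16 (SE 0.43) for T567A minus T567D and 1.54 (SE 0.38) for T567D minus parental. Against wild-type ezrin the T567D line had 53 against 24 counts, a ratio of 2.23 (counting interval 1.35 to 3.77) and a log2 fold change of 1.15 (SE 0.36), which was not called. Between lines other than T567D, 2 differences were called, and both calls were lost when single libraries were left out while the fold changes stayed of similar size. Both tests also needed the T567D libraries in the fit, because with the 2 compared lines alone Igf1 did not pass the filter. Igf1 was higher in wild-type than in empty-vector libraries by 2.22 (SE 0.59, adjusted p = 0.013), and by 1.79 (adjusted p = 0.18) when wild-type replicate 1 was left out, 2.50 (0.078) when empty-vector replicate 2 was and 1.98 (0.12) when empty-vector replicate 3 was. It was lower in empty-vector than in parental libraries by a log2 fold change of -1.82 (SE 0.63, adjusted p = 0.018), and by -2.11 (adjusted p = 0.057) or -1.58 (0.12) when empty-vector replicate 2 or 3 was left out, -1.66 (0.093) when parental replicate 3 was, and -1.88 (0.081) in DESeq2. On log2(RPKM + 1), a scale that compresses low genes, the values were 0.18 for T567D minus empty-vector, -0.15 for T567A minus T567D and 0.13 for T567D minus parental, and limma called neither wild-type minus empty-vector (0.07, adjusted p = 0.3) nor empty-vector minus parental (-0.05, adjusted p = 0.37).

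Igf2, the foetal growth factor and an imprinted gene expressed from the paternal allele in mouse, was close to absent from the count tables. Igf2 had 3 and 2 counts in T567A, 2 and 3 in T567D, 4 and 3 in wild-type, 0 and 0 in empty-vector, and 2 and 1 in parental libraries. Its total of 20 counts over 8 libraries was too low to test, and a count of 0 allowed up to 0.169 and 0.173 CPM in the empty-vector libraries. H19, the non-coding RNA imprinted in the opposite sense beside Igf2, had 3 counts in all. Igf2 lies on chromosome 7 on the - strand (chr7:142650766-142666816) and overlaps Gm49394, Mir483 and the antisense gene Igf2os, and Igf2os had 0 counts.

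Of the receptors, Igf2r set the parental line apart from all 4 derived lines. Igf2r was at 159 and 141 CPM in T567A, 159.7 and 159.7 CPM in T567D, 183 and 172 CPM in wild-type, 177 and 205 CPM in empty-vector, and 72.3 and 77.7 CPM in parental libraries. The 8 derived libraries all lay above both parental ones, with no overlap. Relative to the parental mean of 75.0 CPM the level was 200.3% in T567A, 213% in T567D, 237% in wild-type and 255% in empty-vector libraries.

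By edgeR's quasi-likelihood test Igf2r was higher than in parental libraries by a log2 fold change of 1.00 in T567A (SE 0.078, adjusted p = 5.5e-10), 1.09 in T567D (SE 0.078, adjusted p = 1.9e-10), 1.24 in wild-type (SE 0.078, adjusted p = 2.1e-11) and 1.35 in empty-vector libraries (SE 0.078, adjusted p = 5.0e-12). These 4 comparisons share the parental libraries, and the 4 derived lines share the tag col3, so they are not independent of each other. Among the derived lines the order from high to low was empty-vector, wild-type, T567D and T567A, and no neighbouring pair in it was called. Across that order, T567A was lower than empty-vector by a log2 fold change of -0.35 (SE 0.075, adjusted p = 7.0e-04), a call kept in every alternative tried. T567A was lower than wild-type by -0.24 (SE 0.075, adjusted p = 0.014), which was lost without wild-type replicate 1 (adjusted p = 0.13) or T567A replicate 3 (-0.16, adjusted p = 0.11). T567D was lower than empty-vector by -0.26 (SE 0.075, adjusted p = 0.02). That call was lost without empty-vector replicate 3 (-0.15), T567D replicate 1 (-0.26) or T567D replicate 3 (-0.26). It was also lost in limma on log2(RPKM + 1) and on log2(RPKM + 0.1) (adjusted p = 0.072 each).

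Igf2r is expressed from the maternal allele in most mouse tissues, and the antisense RNA Airn, made from the paternal allele, overlaps it on the + strand. Airn averaged 3.04 CPM in T567A, 3.28 CPM in T567D, 3.69 CPM in wild-type, 3.54 CPM in empty-vector and 2.24 CPM in parental libraries. Igf2r counts were thus many times the Airn counts in every line. Whether counting used the strand is not given, so the 2 genes' shared reads were not separated here, and poly-A counts do not tell alleles apart.

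Igf1r, the signalling receptor (chromosome 7, + strand, chr7:67952827-68233668), varied far less and was lowest in the T567A line. Igf1r was at 63.1 and 54.6 CPM in T567A, 83.2 and 78.6 CPM in T567D, 81.5 and 80.8 CPM in wild-type, 69 and 76.8 CPM in empty-vector, and 63.3 and 69.7 CPM in parental libraries. Both T567A libraries lay below every library of the other lines, and T567D and wild-type libraries overlapped above all the rest. T567A was lower than wild-type by a log2 fold change of -0.47 (SE 0.079, adjusted p = 8.3e-05) and lower than T567D by -0.46 (SE 0.079, adjusted p = 7.5e-05) in edgeR's quasi-likelihood test, both kept in every alternative. T567D and wild-type averaged 80.9 and 81.1 CPM and were not called different (SE 0.077 on the log2 scale, adjusted p = 1). T567A was lower than empty-vector by -0.31 (SE 0.080, adjusted p = 0.003), but not without T567A replicate 3 (-0.20, adjusted p = 0.056) or empty-vector replicate 3 (adjusted p = 0.053). T567D was higher than parental by 0.28 (SE 0.078, adjusted p = 0.004) and wild-type by 0.29 (SE 0.078, adjusted p = 0.0035), and without parental replicate 1 the adjusted p was 0.073 for T567D and 0.064 for wild-type. Empty-vector minus parental, at 0.13 (SE 0.078, adjusted p = 0.16), was not called. T567A minus parental, at -0.18 (SE 0.080), missed the threshold with an adjusted p of 0.059. It was called in 7 alternatives: without T567A replicate 2 (-0.28, adjusted p = 0.0072), without parental replicate 1 (-0.25, adjusted p = 0.038), without the filter (0.027) and without either empty-vector or either T567D library (0.047 to 0.048).

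Among the binding proteins, Igfbp4 differed most between the lines and was called in all 10 pairwise comparisons. Igfbp4 was at 47.3 and 49.6 CPM in T567A, 30.8 and 28.9 CPM in T567D, 38.3 and 37.2 CPM in wild-type, 12.1 and 11.6 CPM in empty-vector, and 158 and 145 CPM in parental libraries. The 5 lines did not overlap, and the order from high to low was parental, T567A, wild-type, T567D and empty-vector. As a share of the parental mean of 151 CPM, 32.0% was left in T567A, 19.8% in T567D, 25.0% in wild-type and 7.84% in empty-vector libraries.

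Igfbp4 was 12.7-fold lower in empty-vector than in parental libraries (log2 fold change -3.67, SE 0.083, adjusted p = 9.7e-19, edgeR's quasi-likelihood test). It was 4.09-fold higher in T567A than in empty-vector libraries (log2 2.03, SE 0.089, adjusted p = 1.3e-13), 2.52-fold higher in T567D (log2 1.33, SE 0.093, adjusted p = 3.0e-09) and 3.18-fold higher in wild-type libraries (log2 1.67, SE 0.090, adjusted p = 4.4e-11). All 3 lines with an ezrin construct thus lay between the empty-vector and the parental level, and all 3 remained called lower than parental, at log2 fold changes of -1.64 in T567A (SE 0.071), -2.34 in T567D (SE 0.074) and -2.0 in wild-type libraries (SE 0.072). Between the mutants, Igfbp4 was higher in T567A than in T567D by 0.70 (SE 0.078, adjusted p = 3.7e-07). Relative to wild-type ezrin it was higher in T567A by 0.36 (SE 0.076, adjusted p = 7.5e-04) and lower in T567D by a log2 fold change of -0.34 (SE 0.080, adjusted p = 0.035). The other 9 calls were kept in every alternative, whereas the last was lost in 10 of 19, among them DESeq2 (adjusted p = 0.072) and the fits without T567D replicate 1 (0.098) or 3 (0.26), without wild-type replicate 1 (0.27) or 3 (0.21), or without empty-vector replicate 2 or 3 (0.055 each).

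Igfbp6 was highest in wild-type and lowest in T567A libraries. Igfbp6 (chromosome 15, + strand, chr15:102144362-102149511) was at 24.6 and 25.6 CPM in T567A, 31.6 and 32.4 CPM in T567D, 38.2 and 36.3 CPM in wild-type, 29.4 and 26.5 CPM in empty-vector, and 30.0 and 27.5 CPM in parental libraries. T567A stayed below every other library and wild-type above every other, while empty-vector and parental libraries overlapped. T567A was lower than wild-type by a log2 fold change of -0.57 (SE 0.085, adjusted p = 2.1e-05) and lower than T567D by -0.35 (SE 0.086, adjusted p = 0.0026), and wild-type was higher than parental by 0.37 (SE 0.083, adjusted p = 6.8e-04), all kept in every alternative of edgeR's test. Wild-type was higher than empty-vector by 0.41 (SE 0.083, adjusted p = 0.0018), or by 0.33 with adjusted p = 0.056 without empty-vector replicate 3. Empty-vector and parental libraries averaged 28.0 and 28.8 CPM (log2 fold change -0.04, SE 0.085, adjusted p = 0.73). Not called either were the differences at both ends of the order, T567D minus wild-type at -0.22 (SE 0.082, adjusted p = 0.28), T567A minus empty-vector at -0.16 (SE 0.087, adjusted p = 0.15) and T567A minus parental at -0.19 (SE 0.087, adjusted p = 0.06). The last was called without parental replicate 3 (-0.26) and in limma (adjusted p = 0.048 and 0.046). T567D minus parental, at 0.15 (SE 0.084, adjusted p = 0.13), was likewise not called in edgeR. In limma it was called, at 0.20 and 0.21 (adjusted p = 0.027 and 0.026).

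Igfbp7 (chromosome 5, - strand, chr5:77349240-77408041) had the smallest fold between its highest and lowest line among the tested members, 1.31-fold for T567D over empty-vector. Igfbp7 was at 258 and 293 CPM in T567A, 267 and 292 CPM in T567D, 239.9 and 226 CPM in wild-type, 214 and 213 CPM in empty-vector, and 242 and 239.8 CPM in parental libraries. The T567A and T567D libraries overlapped each other and lay above all other libraries, and both empty-vector libraries lay below all others. Igfbp7 was higher than in empty-vector libraries by 0.37 on the log2 scale in T567A (SE 0.067, adjusted p = 1.2e-04) and by 0.39 in T567D (SE 0.067, adjusted p = 4.1e-04) in edgeR's quasi-likelihood test, and these calls were kept in every alternative. The calls of smaller differences were lost when single libraries were left out. T567A was higher than wild-type by 0.24 (SE 0.067, adjusted p = 0.0062), but not called without wild-type replicate 3 (0.097) or without T567A replicate 3 (log2 fold change 0.14, adjusted p = 0.093). T567A was higher than parental by 0.20 (SE 0.067, adjusted p = 0.015), but not called without parental replicate 1 (0.056), parental replicate 3 (0.076) or T567A replicate 3 (log2 fold change 0.10, adjusted p = 0.23).

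T567D exceeded parental Igfbp7 by 0.21 (SE 0.067, adjusted p = 0.0099), with adjusted p = 0.06 without parental replicate 3 and 0.15 without T567D replicate 3. Empty-vector was lower than parental by -0.17 (SE 0.067, adjusted p = 0.033), a call lost without any of these 4 libraries (adjusted p 0.074 to 0.13) although the value stayed at -0.19 to -0.17, and in limma (0.15 and 0.14 at the pseudocounts 1 and 0.1). T567D minus wild-type, at 0.26 (SE 0.067), missed the threshold with an adjusted p of 0.055 although its unadjusted p was 7.7e-04. It was called in DESeq2 (adjusted p = 0.039), without the filter (0.012), and without T567A replicate 2 (0.0074) or 3 (0.0073). The Igfbp7 gene overlaps Gm34648 and Polr2b on the opposite strand, and Polr2b averaged 131 to 147 CPM over the lines.

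Igfbp2, Igfbp3 and Igfbp5, the remaining binding proteins, were at or near 0 in all lines and were not tested. Igfbp5, usually the most abundant binding protein of bone matrix, had 0 counts in all 10 libraries, which allows at most 0.0175 CPM over the pooled libraries. Igfbp2 had 1 count, in T567D replicate 1. Igfbp3, the main carrier of IGFs in blood, had 9 counts in 5 libraries, with 0 and 4 in T567A, 2 and 1 in T567D, 1 and 0 in wild-type, 1 and 0 in empty-vector, and 0 and 0 in parental libraries. Igfbp2 and Igfbp5 are neighbours on chromosome 1, 5457 bases apart, and Igfbp3 lies 3539 bases from Igfbp1 on chromosome 11, which also had 0 counts in every library.

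**Figure D2:**
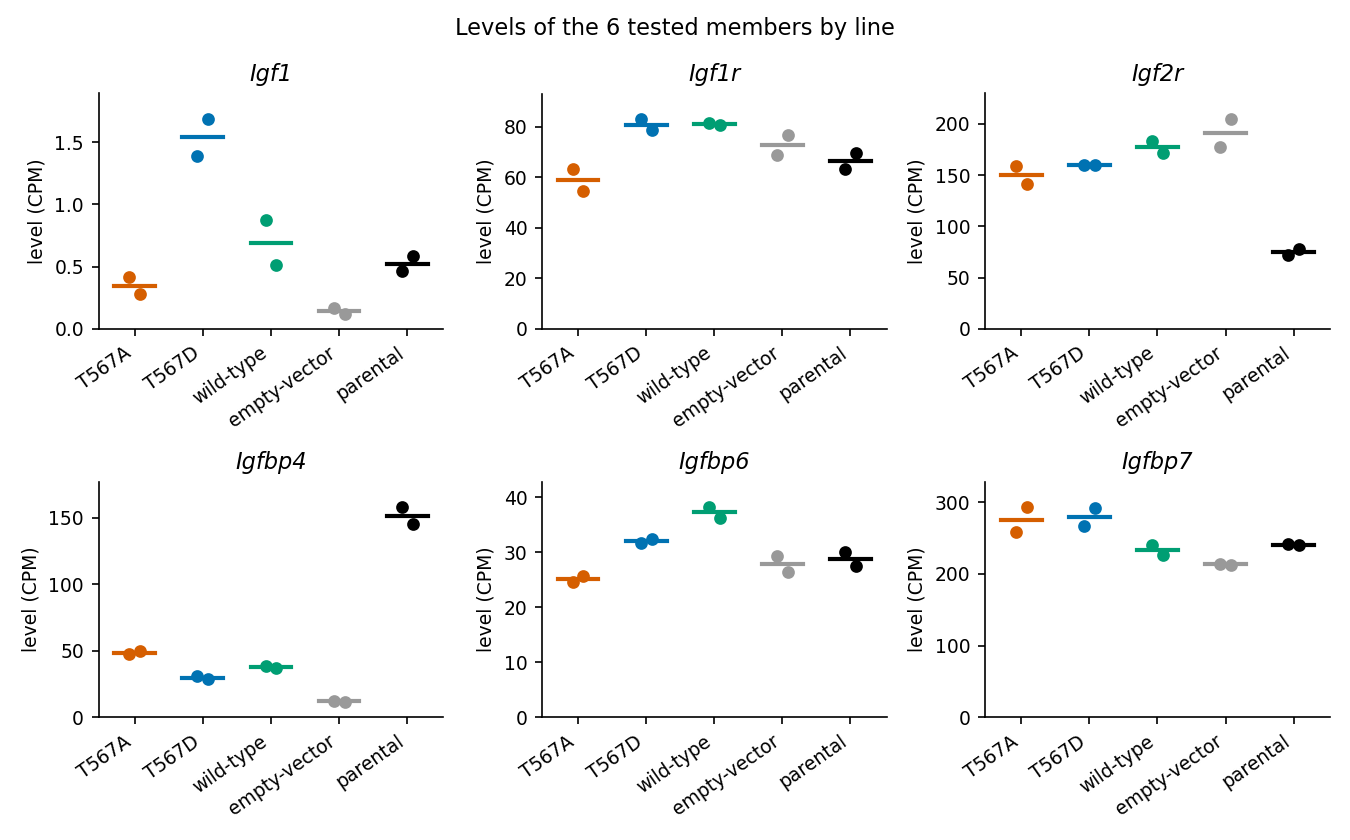
CPM of the 6 tested members in each line (points: the 2 libraries; bars: their mean; each axis starts at 0). Igf2r is lowest and Igfbp4 highest in the parental line, Igf1 is highest in T567D, and Igf1r and Igfbp6 are lowest in T567A.

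**Figure D3:**
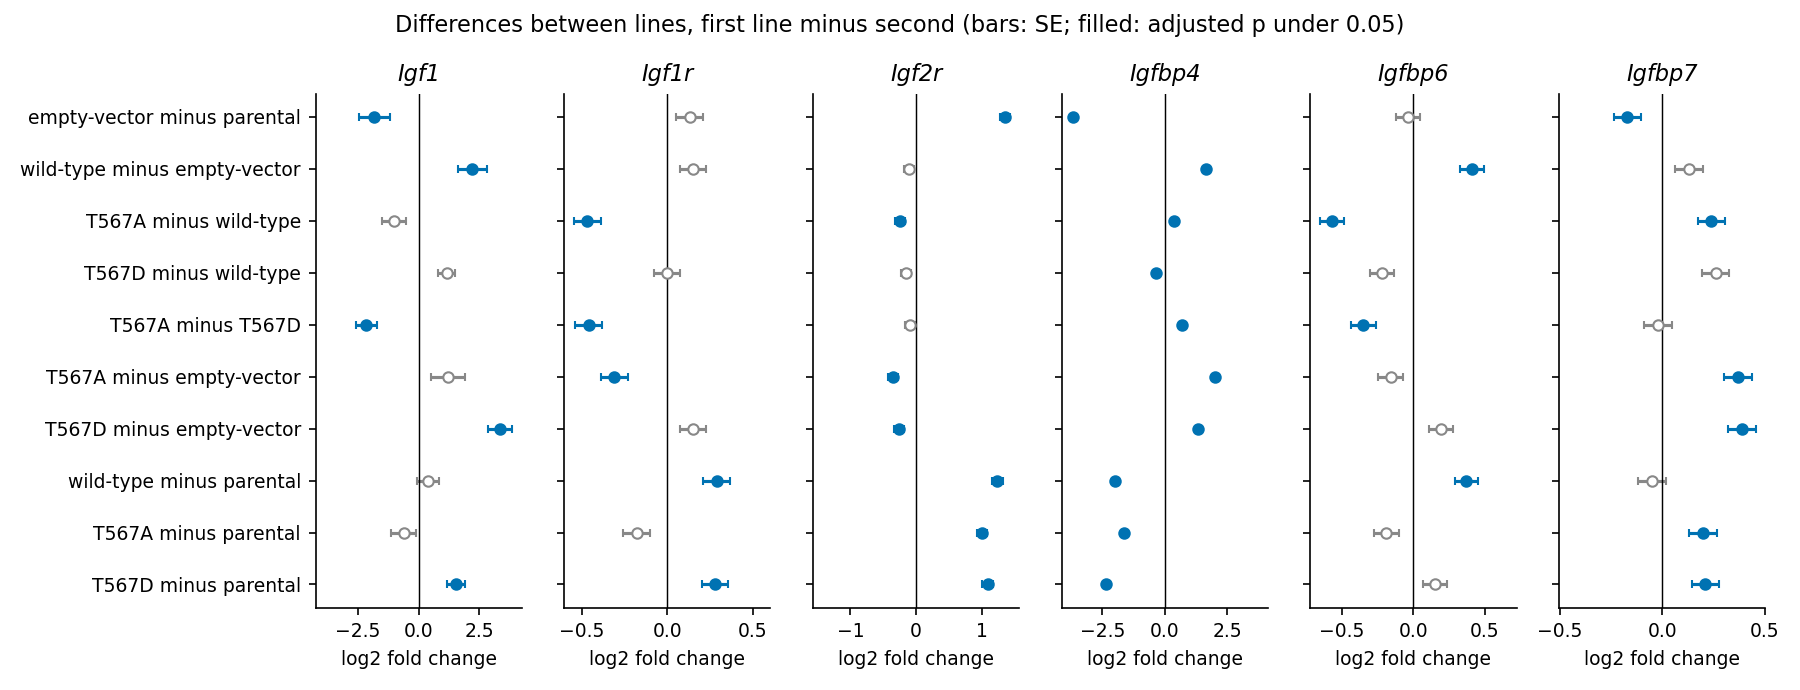
Log2 fold changes of the 6 tested members in the 10 pairwise comparisons, first line minus second, with the standard error as a bar and filled points where the adjusted p was under 0.05 (each panel has its own scale). Igfbp4 is filled in all 10 comparisons, from -3.67 for empty-vector minus parental to 2.03 for T567A minus empty-vector, and Igf2r in all 4 comparisons with the parental line. Filled Igf1 points in comparisons with T567D are description only, because Igf1 passed the filter on low counts through that line.

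The comparison of empty-vector with parental libraries sets ezrin-disrupted cells without an ezrin construct beside unedited ones. Of the 6 tested members, 1 was called higher (Igf2r) and 3 lower (Igfbp4, Igf1 and Igfbp7) in empty-vector libraries, where 54.6% of all tested genes were called, 27.4% higher and 27.2% lower. The count was 2 without parental replicate 3, empty-vector replicate 2 or empty-vector replicate 3. Leaving Igf1 aside, 1 was higher and 2 were lower of 5. The median log2 fold change of the 6 members was -0.11, against 0.000 over all tested genes. Among the 5 members other than Igf1 the median was -0.04, the value of Igfbp6.

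The comparison of wild-type with empty-vector libraries sets cells given back wild-type ezrin beside cells given none. In wild-type libraries 3 of 6 members were called higher (Igfbp4, Igf1 and Igfbp6) and 0 lower, where 15.6% of all genes were called, 8.25% higher and 7.36% lower. Without empty-vector replicate 3 the count was 1, Igfbp4. Leaving Igf1 aside, 2 were higher and 0 lower of 5. The median was 0.28 for the 6 members and -0.010 for all tested genes. Among the 5 members other than Igf1 the median was 0.15, the value of Igf1r. Igfbp4 was nearer its parental level in wild-type than in empty-vector libraries, whereas Igf2r, with a wild-type minus empty-vector log2 fold change of -0.11 (SE 0.074, adjusted p = 0.36), was not called.

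T567A against wild-type ezrin had 5 of 6 members called, with Igfbp4 and Igfbp7 higher and Igf1r, Igf2r and Igfbp6 lower in T567A. Among all tested genes 39.6% were called, 20.4% higher and 19.1% lower. The members' count was 3 without T567A replicate 3, and their median log2 fold change was -0.35, against 0.000 for all tested genes. Among the 5 members other than Igf1 the median was -0.24, the value of Igf2r. T567D against wild-type ezrin had 1 member called, Igfbp4, lower in T567D, where 1.34% of all genes were called, 0.818% higher and 0.524% lower. That count became 0 without any 1 of the wild-type, T567D or empty-vector libraries, and 2 without T567A replicate 2 or 3. Of the 5 members other than Igf1, T567A against T567D had 1 called higher (Igfbp4) and 2 lower (Igf1r and Igfbp6) in T567A. Among all tested genes 44.1% were called, 22.5% higher and 21.6% lower. Igf1 is left out of the counts of comparisons with T567D in which it differed, because it passed the filter through that line.

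The remaining comparisons share the empty-vector or the parental libraries with those above. T567A against empty-vector had 2 members higher (Igfbp4 and Igfbp7) and 2 lower (Igf1r and Igf2r), where 46.4% of all genes were called, 23.7% higher and 22.7% lower. Of the 5 members other than Igf1, T567D against empty-vector had 2 higher (Igfbp4 and Igfbp7) and 1 lower (Igf2r). Among all genes 17.8% were called there, 9.43% higher and 8.34% lower. Against the parental line, T567A had Igf2r and Igfbp7 called higher and Igfbp4 called lower, where 62.1% of all genes were called, 31.4% higher and 30.7% lower. T567D had 3 of the 5 members other than Igf1 called higher (Igf1r, Igf2r and Igfbp7) and 1 lower (Igfbp4). In that comparison 55.4% of all genes were called, 27.1% higher and 28.2% lower. Wild-type had 3 called higher (Igf1r, Igf2r and Igfbp6) and Igfbp4 lower, where 56.2% of all genes were called, 27.7% higher and 28.5% lower.

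Ratios formed inside a library do not depend on scaling between libraries, and they are given here as a description, with no test. Per kilobase, Igf2r exceeded Igf1r 4.55 and 4.66 times in T567A, 3.46 and 3.66 times in T567D, 4.06 and 3.83 times in wild-type, 4.62 and 4.83 times in empty-vector, and 2.06 and 2.01 times in parental libraries. The parental libraries had the lowest ratios, and T567D libraries the lowest of the derived lines, while T567A and empty-vector libraries overlapped. The summed RPKM of the binding proteins was 226 and 257 in T567A, 242 and 261 in T567D, 228 and 215 in wild-type, 193 and 190.4 in empty-vector, and 239.5 and 233 in parental libraries, and Igfbp7 made up 76.1% to 87.6% of it. Igfbp4 made up 4.35% and 4.06% of that sum in T567A, 2.73% and 2.36% in T567D, 3.60% and 3.70% in wild-type, 1.33% and 1.30% in empty-vector, and 13.6% and 12.8% in parental libraries. Igfbp4 exceeded Igfbp6 per kilobase only in the parental line, at ratios of 1.32 and 1.33, and in the derived lines the ratio was 0.483 and 0.488 in T567A, 0.246 and 0.225 in T567D, 0.253 and 0.258 in wild-type, and 0.103 and 0.110 in empty-vector libraries.

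**Figure D4:**
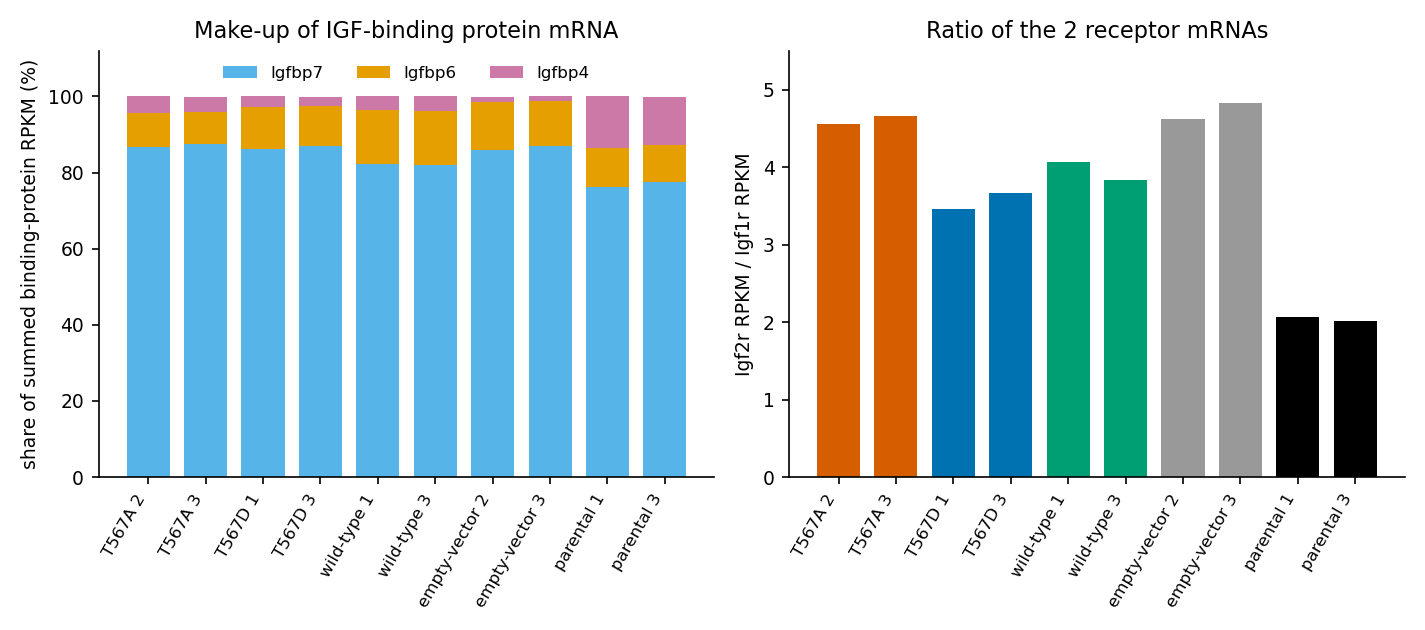
Left, share of the summed binding-protein RPKM taken by Igfbp7, Igfbp6 and Igfbp4 in each library; right, Igf2r RPKM divided by Igf1r RPKM, with axes from 0 and line and replicate number under each bar. The Igfbp4 share is 13.6% and 12.8% in the parental libraries and 1.33% and 1.30% in the empty-vector ones, and the receptor ratio is lowest in the parental libraries, at 2.06 and 2.01.

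For each well-counted member, the genes with the most similar profile over the 10 libraries were ranked by Pearson r of log2 CPM among genes that reached 10 CPM in their highest line and had a range of line means of at least 1 on the log2 scale. These correlations describe 10 libraries in 5 pairs that share a line, and so reflect little more than 5 levels. Igfbp4 was most like Itga11, a collagen-binding integrin chain (r = 0.990), Fmnl1, a formin that assembles actin (r = 0.989), and Cdh17, a cadherin (r = 0.986). Itga11 averaged 14.7 CPM in T567A, 6.10 in T567D, 6.91 in wild-type, 1.65 in empty-vector and 61.7 CPM in parental libraries, the same order of lines as Igfbp4. Igf2r was most like Ift172 (r = 0.987), Ankib1 (r = 0.986) and Cc2d2a (r = 0.986), of which Ift172 and Cc2d2a encode proteins of the primary cilium. Cc2d2a averaged 62.0 CPM in T567A, 70.6 in T567D, 70.1 in wild-type, 77.1 in empty-vector and 31.1 CPM in parental libraries. Igf1r was most like Wwc1 (r = 0.939), a Hippo pathway scaffold, and Fn1, fibronectin (r = 0.916), Igfbp7 most like the phospholipase Pla2g5 (r = 0.939), and Igfbp6 most like the autophagy gene Atg9b (r = 0.868).

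The wider pathway was read from a list of 53 other genes in 4 groups, of which 40 were tested. This list, too, was chosen with earlier results of these data known. In empty-vector against parental libraries 25 of 40 were called, 11 higher and 14 lower (62.5%, against 54.6% of all tested genes). Among carriers and proteases that cut the binding proteins, 2 were higher and 3 lower of 6 tested. Among the insulin receptor family and adaptors 3 were higher and 5 lower of 11, or 5 called in all without parental replicate 3 or empty-vector replicate 2. In the relay from PI3-kinase through AKT to FOXO factors 5 were higher and 3 lower of 16, and among regulators of Igf mRNA 1 was higher and 3 lower of 7. In T567A against wild-type libraries 22 of 40 were called, 10 higher and 12 lower (where 39.6% of all tested genes were called), and 14 without wild-type replicate 1 or T567A replicate 2. In T567D against wild-type libraries 0 of 40 were called by edgeR, where 1.34% of all tested genes were called, with 4 at an unadjusted p under 0.05, and 0 by DESeq2 (3 at that level) and by limma at either pseudocount (4 each). The count was 1 without T567A replicate 2 or 3, and 2 without the filter on low counts.

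Htra1, a secreted serine protease that cleaves binding proteins, had the widest range of the pathway genes named here. Htra1 was at 30.1 and 36.6 CPM in T567A, 50.5 and 62.6 CPM in T567D, 60.9 and 48.5 CPM in wild-type, 52.4 and 55.8 CPM in empty-vector, and 282 and 280.2 CPM in parental libraries. It was lower in empty-vector than in parental libraries by a log2 fold change of -2.38 (SE 0.12, adjusted p = 2.7e-09) and lower in T567A than in wild-type libraries by -0.71 (SE 0.13, adjusted p = 9.6e-04). Pappa2, a relative of PAPP-A that cuts other binding proteins, averaged 8.26 CPM in T567A, 4.70 in T567D, 5.27 in wild-type, 3.66 in empty-vector and 11.6 CPM in parental libraries, and was higher in T567A than in empty-vector libraries by 1.16 (SE 0.18, adjusted p = 2.2e-05). Pappa itself, whose product cleaves IGFBP4, had 5 counts over all libraries. Htra3, a relative of Htra1, was higher in empty-vector (2.03 and 2.54 CPM) than in parental libraries (0.639 and 1.17 CPM), by 1.33 (SE 0.30, adjusted p = 6.7e-04).

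Downstream of the receptor, Irs2, an adaptor that carries the signal of IGF1R and the insulin receptor, was lower in empty-vector (81.8 and 94.8 CPM) than in parental libraries (125 and 128 CPM), by a log2 fold change of -0.52 (SE 0.070, adjusted p = 1.9e-06), and lower in T567A (75.7 and 71.4 CPM) than in wild-type libraries (mean 100.2 CPM), by -0.45 (SE 0.072, adjusted p = 4.3e-05). The insulin receptor gene Insr was lower in empty-vector (14.0 and 14.1 CPM) than in parental libraries (18.8 and 21.1 CPM), by -0.51 (SE 0.10, adjusted p = 1.8e-04). Socs3, an inhibitor of cytokine and insulin signalling, was higher in wild-type (30.4 and 30.9 CPM) than in parental libraries (22.6 and 18.1 CPM), by 0.59 (SE 0.10, adjusted p = 4.2e-05). The 2 ubiquitous catalytic subunits of PI3-kinase went in opposite directions. In empty-vector against parental libraries Pik3cb was lower by -1.59 (SE 0.080, adjusted p = 5.0e-13) and Pik3ca higher by 0.80 (SE 0.071, adjusted p = 4.1e-09). Foxo4, a FOXO transcription factor restrained by AKT, was lower by -1.21 (SE 0.12, adjusted p = 3.1e-08).

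Among regulators of the ligands, the growth hormone receptor Ghr, which drives Igf1 transcription in liver, was at 53.9 and 51.6 CPM in T567A, 80.5 and 66.5 CPM in T567D, 72.2 and 74.1 CPM in wild-type, 58.5 and 60.2 CPM in empty-vector, and 87.6 and 89.7 CPM in parental libraries. Ghr was lower in empty-vector than in parental libraries by -0.58 (SE 0.078, adjusted p = 1.8e-06) and lower in T567A than in wild-type libraries by -0.47 (SE 0.080, adjusted p = 7.6e-05). Plag1 and Hmga2, factors known to activate Igf2, went opposite ways in empty-vector against parental libraries, Plag1 lower by -1.69 (SE 0.27, adjusted p = 2.1e-05) and Hmga2 higher by 0.72 (SE 0.072, adjusted p = 2.3e-08), while Igf2 itself stayed at 0 to 4 counts in every library. The comparison named differs between these pathway genes. The differences named were kept in every alternative run for them, but other called differences of the same genes were not. With the replicate number as a block in edgeR, the calls of Socs3 in empty-vector minus parental (0.34) and Pappa2 in T567A minus wild-type (0.63) were lost, with adjusted p = 0.06 each. Of 1357 values recomputed under alternatives for the called differences of the 12 named genes, 104 lost the call. In DESeq2 these were, for instance, Plag1 in T567A minus wild-type (adjusted p = 0.18) and Insr and Pappa2 in T567A minus parental (0.12 and 0.052).

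**Figure D5:**
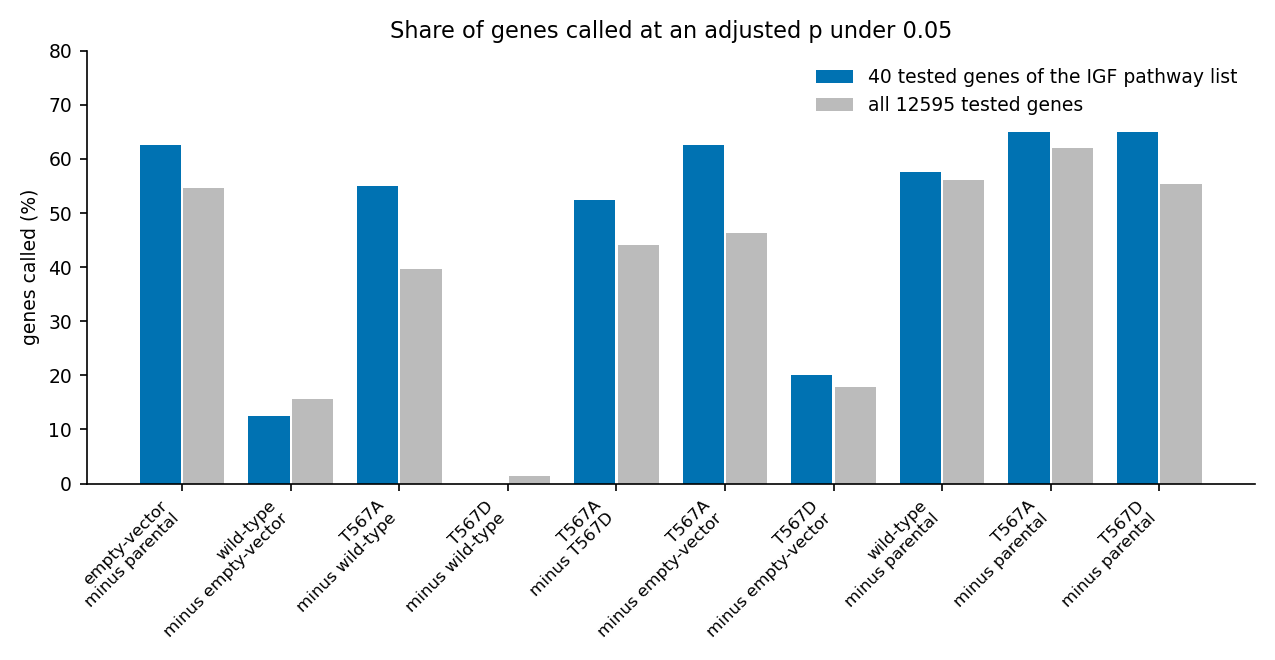
Share of genes called at an adjusted p under 0.05 in each comparison, for the 40 tested genes of the pathway list and for all tested genes. The list stands at 62.5% beside 54.6% for empty-vector minus parental, at 52.5% beside 44.1% for T567A minus T567D, and at 0 beside 1.34% for T567D minus wild-type.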

How the data were processed

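Poly-A RNA of the mouse osteosarcoma line K7M2 and 4 derived lines was sequenced on DNBSEQ from dUTP strand-marked libraries, per the labels' protocols. The authors deposited, for each of 10 libraries, raw counts per gene name and RPKM values computed by the authors. The submitters' processing notes name the build GRCm38. No aligner, counter, annotation release or strand setting of counting is given in the sources used here. Groups and replicate numbers came from the labels, which do not say that a number marks a shared batch: the 14 same-number pairs of libraries had correlations of their deviations from the line means between -0.10 and 0.07, and the libraries were treated as unpaired.

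Tests of the counts used edgeR 4.0.16 (R 4.3.3). Of 41743 gene names, filterByExpr (minimum count 10, minimum total 15) kept 12595, and TMM scaled the libraries. A single robust quasi-likelihood fit held all 10 libraries, with 5 line means and 5 residual degrees of freedom. P-values are two-sided with Benjamini-Hochberg adjustment over all 12595 genes in each comparison, and a gene was called at an adjusted p under 0.05. CPM uses the TMM-scaled library sizes. The code was tested on simulated data with known fold changes. Intervals are exact binomial (Clopper-Pearson, 95%), and they and the floor of 3 counts cover counting error only.

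The members and gene lists were chosen with earlier results of these data known. All 10 members are named, and of each pathway group up to 3 genes called in the F test over the 5 lines that reached 1 CPM in the highest line, those with the largest range of line mean log2 CPM. Genes similar to a member were ranked by Pearson r of log2 CPM (prior count 2). Other settings tried were DESeq2 1.42.0, scaling by RLE or by the upper quartile, a filter of 5 CPM in 2 libraries or none, a block on the replicate number, the 2 compared lines alone, limma 3.58.1 on log2(RPKM + 1) and log2(RPKM + 0.1), and leaving out each library. Positions come from GENCODE M21.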

Additional observations from a re-analysis of the deposited data

How the results depend on the processing

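Of 1122 fold changes of members recomputed under alternatives, 1041 kept their direction and their side of the threshold, 50 lost and 19 gained a call in the same direction, and 12 changed sign, none of them called. Of 37 called values, 24 were kept in every alternative that gave an adjusted p. Igf1 accounts for 5 of the 37 and 3 of the 24. Those 3 are its differences from T567D, which are description only because Igf1 passed the filter through that line. Of empty-vector minus parental, 2 members were called in limma on log2(RPKM + 1) and on log2(RPKM + 0.1), against 4. Of T567D minus wild-type, 2 were called without the filter and with the 2 lines alone, and 0 in limma at both pseudocounts, against 1. Leaving out each library gave 2 to 4 members for empty-vector minus parental, 1 to 3 for wild-type minus empty-vector, 3 to 5 for T567A minus wild-type and 0 to 2 for T567D minus wild-type. The sign changes were in values not called: leaving out each library gave log2 fold changes of -0.03 to 0.72 for Igf1 in wild-type minus parental (0.40 with all libraries), -0.05 to 0.04 for Igf1r in T567D minus wild-type, -0.12 to 0.04 for Igfbp6 in empty-vector minus parental and -0.12 to 0.08 for Igfbp7 in T567A minus T567D. In limma, Igfbp6 in empty-vector minus parental and Igfbp7 in wild-type minus parental were 0.00 at both pseudocounts. The causes were not tested. With the replicate number as a block, 55 of 60 values kept their call, the members called in T567D minus wild-type fell to 0, the pathway genes called in T567A minus wild-type were 12 rather than 22, and Igfbp7 in T567A minus T567D was 0.02. The block also ended the calls of Igf2r in T567A minus wild-type (adjusted p = 0.099) and T567D minus empty-vector (0.086), Igfbp7 in empty-vector minus parental (0.22) and Igfbp4 in T567D minus wild-type (0.057). DESeq2 gave no adjusted p for Igf1 in wild-type and T567D minus empty-vector, and at 5 CPM in 2 libraries Igf1 was not tested. With the 2 compared lines alone, Igf1 was also not tested in empty-vector minus parental and wild-type minus empty-vector. Depth limits the ligands: Igf1 rests on 111 counts in all and Igf2 on 20.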

Other observations

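Other genes of the list with few counts, chosen after their values were seen, followed the lines unevenly. Igfals, which encodes the acid-labile subunit that joins IGF and IGFBP3 in blood, had 9 and 14 counts in T567A, 9 and 10 in T567D, 9 and 3 in wild-type, 1 and 1 in empty-vector, and 0 and 0 in parental libraries. Grb10, an imprinted adaptor that restrains the insulin and IGF1 receptors, had 17 counts in parental replicate 3 and 0 in parental replicate 1, against at most 2 in every other library. The mRNA-binding proteins of Igf2 mRNA were also scarce, with 26 counts of Igf2bp1 and 49 of Igf2bp3 over the 10 libraries.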
